A study of Mus musculus with 2 samples.

Results

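The shared deep intronic DHSs are stretches of open chromatin that lie inside protein-coding genes, far from any gene start, and were found in both libraries of mouse adrenal gland. A DHS (DNase I hypersensitive site) is a short stretch that the enzyme DNase I cuts more often than its surroundings. Members are autosomal DHSs of replicate 1 that shared 1 bp or more with a DHS called in replicate 2 and had the centre in a protein-coding gene, in no annotated exon and over 10 kb from every protein-coding start. The longer of the 2 deposited peak lists was used in each library. There were 16004 members among 28682 deep intronic and 127253 autosomal DHSs of replicate 1, and 130945 DHSs on all chromosomes. Presence in both libraries chose the members, so their number and heights are descriptions and carry no test.

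DNase-seq was done on adrenal gland tissue of B6CASTF1/J males aged 25 days, 1 library each for replicate 1 and replicate 2. B6CASTF1/J animals are first-generation hybrids of the C57BL/6J and CAST/EiJ strains. The labels describe them as separately numbered males and biological replicates, give both the same donor code, and name the same instruments for both. There is no second group, so the 2 libraries are set side by side and no p-value is given.

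DHSs in introns away from gene starts are where many enhancers lie, sequences that bind transcription factors and act on a start at a distance. Where a bound protein shields DNA, DNase I cuts less, and the protected bases within a DHS are called a footprint. The adrenal gland joins a steroid-making cortex, which depends on the nuclear receptor SF-1 (Nr5a1), to a medulla of catecholamine-making chromaffin cells, and both contain vessels, connective tissue and immune cells.

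The sequences of 11 members are shown because they carry the patterns described below: very strong sites, and sites with a consensus sequence under footprints of both libraries. They are the plus strand of the RefSeq GRCm38.p6 (mm10) assembly, 5′ to 3′. The first pair are among the 3 strongest members by geometric mean height whose middle 36 bases occur once in the assembly. Capitals mark bases inside a footprint in both libraries.

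Prdm2, chr4:143162121-143162420: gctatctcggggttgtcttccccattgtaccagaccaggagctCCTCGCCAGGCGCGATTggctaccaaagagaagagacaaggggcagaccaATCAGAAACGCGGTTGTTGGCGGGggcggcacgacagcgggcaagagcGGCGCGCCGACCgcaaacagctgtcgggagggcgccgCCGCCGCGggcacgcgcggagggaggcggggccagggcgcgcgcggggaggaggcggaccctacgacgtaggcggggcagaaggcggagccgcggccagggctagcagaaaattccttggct

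Rap1gap2, chr11:74408981-74409140: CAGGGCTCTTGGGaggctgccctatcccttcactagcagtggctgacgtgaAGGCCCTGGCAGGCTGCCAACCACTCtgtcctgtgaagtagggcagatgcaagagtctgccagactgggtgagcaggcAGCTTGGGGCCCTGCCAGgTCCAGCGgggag

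Prdm2 encodes a histone methyltransferase of the PR-domain family, and its site, in intron 5 of 9, had heights of 22.7 in replicate 1 and 19.6 in replicate 2. Height is the deposited peak signal, scaled to read depth by the authors. The site lay 89 bp from the nearest exon edge, had a GC content of 69.3% and had a CpG frequency of 1.03 times that expected from its bases. Rap1gap2, which encodes a GTPase-activating protein for Rap1, had heights of 27.3 and 13.3 at its site. The sites held 7 and 3 footprints in replicate 1 and 4 each in replicate 2.

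In the next 7 sequences, chosen by the same rule within each set, capitals mark the match to a consensus sequence that lies under a footprint in both libraries. The first 3 hold the SF-1 (NR5A) sequence CAAGGTCA or its reverse complement.

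Cuedc1, chr11:88164781-88164980: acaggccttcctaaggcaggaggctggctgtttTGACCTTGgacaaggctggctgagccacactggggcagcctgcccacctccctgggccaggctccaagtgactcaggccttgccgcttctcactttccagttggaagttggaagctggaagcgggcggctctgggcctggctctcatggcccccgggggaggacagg

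Sgpp2, chr1:78355261-78355420: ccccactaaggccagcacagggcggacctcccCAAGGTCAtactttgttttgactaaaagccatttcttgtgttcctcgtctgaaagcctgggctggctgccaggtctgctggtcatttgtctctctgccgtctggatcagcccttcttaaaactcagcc

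Dlc1, chr8:36677881-36678060: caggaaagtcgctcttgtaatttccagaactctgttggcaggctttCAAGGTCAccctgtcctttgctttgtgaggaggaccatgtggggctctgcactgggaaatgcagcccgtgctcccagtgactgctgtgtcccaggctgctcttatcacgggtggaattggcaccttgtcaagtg

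The following pair holds the AP-1 sequence TGANTCA, bound by Fos and Jun family dimers.

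Gli2, chr1:118976641-118976820: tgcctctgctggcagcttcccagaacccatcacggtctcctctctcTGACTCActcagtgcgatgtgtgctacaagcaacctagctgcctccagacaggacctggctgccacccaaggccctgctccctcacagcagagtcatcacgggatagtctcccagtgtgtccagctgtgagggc

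Map6, chr7:99304941-99305120: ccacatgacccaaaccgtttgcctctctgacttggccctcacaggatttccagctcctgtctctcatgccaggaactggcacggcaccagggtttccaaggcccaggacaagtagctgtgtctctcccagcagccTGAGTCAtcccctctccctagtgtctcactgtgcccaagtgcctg

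The next pair holds the NFI palindrome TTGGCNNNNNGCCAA, bound by nuclear factor I dimers.

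Ralb, chr1:119492261-119492420: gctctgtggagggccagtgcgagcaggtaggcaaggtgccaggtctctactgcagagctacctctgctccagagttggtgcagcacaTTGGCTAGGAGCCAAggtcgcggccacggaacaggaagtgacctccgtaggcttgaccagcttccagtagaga

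Tgm2, chr2:158121701-158121880: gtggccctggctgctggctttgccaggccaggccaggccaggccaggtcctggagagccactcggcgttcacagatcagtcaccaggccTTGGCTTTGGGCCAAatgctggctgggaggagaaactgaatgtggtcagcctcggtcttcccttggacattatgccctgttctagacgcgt

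The last pair was chosen after its values were seen, as the strongest members with the CTCF core CCANNAGNNGGC under footprints of both libraries. CTCF is the zinc finger protein that marks chromatin loop anchors and insulators.

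Acot11, chr4:106778461-106778620: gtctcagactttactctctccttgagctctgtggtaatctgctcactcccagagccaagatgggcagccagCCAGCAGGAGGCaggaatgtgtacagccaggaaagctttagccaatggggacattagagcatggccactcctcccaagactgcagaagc

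St3gal3, chr4:118083701-118083860: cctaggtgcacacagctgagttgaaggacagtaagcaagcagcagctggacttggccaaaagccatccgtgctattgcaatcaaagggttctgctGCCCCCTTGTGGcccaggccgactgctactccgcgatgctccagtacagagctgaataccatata

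Heights at Cuedc1 were 12.5 and 7.61, at Sgpp2, a sphingosine-1-phosphate phosphatase gene, 11.6 and 7.54, and at Dlc1, a GTPase-activating protein gene, 4.85 and 7.31. Dlc1 was thus the one site among the 11 with a higher value in replicate 2. Gli2, a transcription factor of the Hedgehog pathway, had heights of 14.5 and 10.1, and Map6, a microtubule-associated protein gene, 12.3 and 7.63. Ralb, a small GTPase gene, had 11.2 and 8.58, and Tgm2, a transglutaminase gene, 10.6 and 5.84. Acot11, an acyl-CoA thioesterase gene, had 19.01 and 12.3, and St3gal3, a sialyltransferase gene, 14.8 and 7.95.

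The tissue label was checked at promoters. DHSs lay within 1 kb of the starts of all 6 cortical marker genes in both libraries, for example Nr5a1 with heights of 9.01 and 4.09 and Star with 7.55 and 4.02. Of the chromaffin markers, Th, Dbh, Chga, Chgb and Phox2a had such DHSs in both. The kidney markers Umod, Slc12a1 and Slc34a1 and the liver markers Alb, Apoa1 and Ttr had none in either library. Of the macrophage and lymphocyte markers, Csf1r and Ptprc had none, while Cd3e (0.577) had a promoter DHS in replicate 2 only. Replicate 2 had the longer peak list, with 151105 autosomal DHSs.

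Deep intronic DHSs found in both libraries were the taller ones. Of the deep intronic DHSs of replicate 1, 55.8% (95% Wilson interval 55.2 to 56.4, counting error only) overlapped one of replicate 2, and of the 33026 in replicate 2, 48.5% (48.0 to 49.1) overlapped one of replicate 1. The share shared was 81.3% for promoter DHSs of replicate 1, 60.1% for intronic DHSs within 10 kb of a start, 59.8% for intergenic DHSs 10 to 100 kb from a start and 46.2% for those farther away. In replicate 1 the share ran from 16.0% in the lowest 10% by height to 98.4% in the highest, and in replicate 2 from 4.97% to 97.6%. Below the median height, deep intronic DHSs of replicate 2 were shared less often than those of replicate 1, with no overlap of the intervals in any of the lowest 5 height classes of 10% each.

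**Figure D1:**
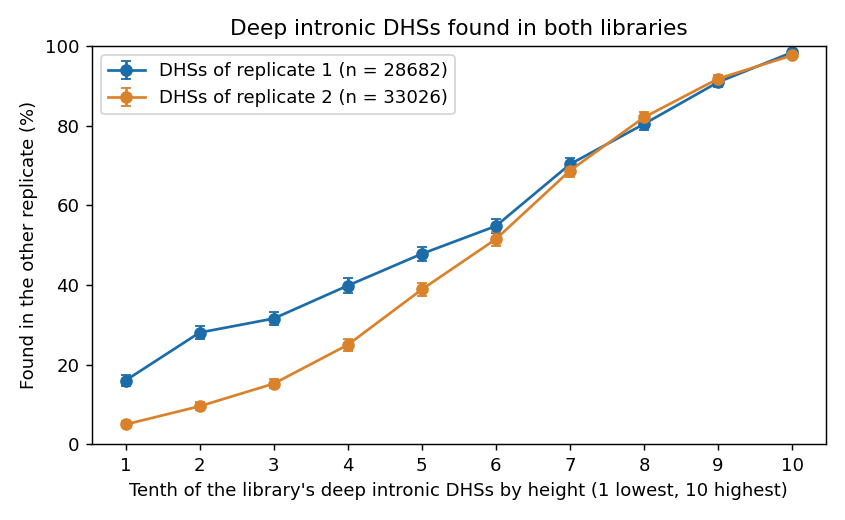
Share of deep intronic DHSs of each library (y axis, percent, with 95% Wilson intervals) that overlapped a DHS of the other library, in classes of 10% of its DHSs by height (x axis). Both lines climb to 98.4% and 97.6% in the tallest class, while in the lowest the share was 16.0% in replicate 1 and 4.97% in replicate 2.

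The members were narrow and of modest height. Their median width was 160 bp, and they overlapped their partners by a median of 140 bp. Median height was 1.27 in replicate 1 and 1.05 in replicate 2, against 4.25 and 2.98 for shared promoter DHSs. The middle 80% ran from 0.517 to 4.37 in replicate 1 and from 0.551 to 2.53 in replicate 2. The shorter, stricter peak list of replicate 1 held 74.6% of members, that of replicate 2 held 55.7%, and 49.3% were in both. The distance limit of 10 kb passed through a continuous set of sites. Just inside it lay members in Cdkl4 (10003 bp from a start, heights 1.79 and 1.53), Clock (10005 bp, 0.533 and 0.657) and Plce1 (10008 bp, 0.492 and 0.924). Just outside lay shared DHSs in Scarb2 (9999 bp, 0.417 and 0.773), Ctsb (9998 bp, 0.967 and 1.58) and Chchd3 (9996 bp, 1.29 and 1.26).

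Sites were spread over long stretches of intron, and many had another member nearby. The median distance from the nearest protein-coding start was 34798 bp, and 15.9% lay over 100 kb away. The median distance from an exon edge was 3692 bp, and 25.2% lay within 1 kb of one. In the transcript chosen for each gene, 20.3% lay in intron 1, 14.7% in intron 2 and 56.9% in a later intron. Another member lay within 10 kb of 53.6% of members, and none within 50 kb of 17.2%. The spacing expected from density alone was not computed. An annotated start of some other transcript, such as a noncoding one, lay within 1 kb of 882 members (5.51%), whose median heights were 1.56 and 1.27, against 1.25 and 1.04 for the rest. Of the 100 strongest members, 12 were within 1 kb of such a start, 19 were CpG-rich and 15 held the CTCF core, where CpG-rich means a GC content over 50% and a CpG frequency of at least 0.6 times that expected. Among all members 3.25% were CpG-rich, against 72.1% of shared promoter DHSs.

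Density was higher near gene starts and lower in very long introns. The deep intronic territory, every base that a member's centre could occupy, came to 657 Mb and held 0.0244 members per kb, or 1 per 41.1 kb. This is 24.4 per Mb, against 16.7 shared DHSs per Mb of intergenic sequence over 10 kb from a start. The 2 territories were not matched for distance from a start, with which the members' density fell. By distance from the nearest start, density was 31.7 per Mb at 10 to 20 kb, 29.6 at 20 to 50 kb, 23.5 at 50 to 100 kb, 17.3 at 100 to 200 kb and 9.57 beyond 200 kb. Height followed the same order, with a median of 1.47 in replicate 1 and 1.20 in replicate 2 in the nearest bin, and 0.842 and 0.755 in the farthest. By distance from an exon edge, density was 28.3 per Mb within 1 kb and 11.6 per Mb beyond 50 kb. Introns of up to 10 kb held 28.1 per Mb and those over 300 kb held 14.2 per Mb. Chromosome 11 had the highest density, 34.1 per Mb, and chromosome 3 the lowest, 18.4 per Mb.

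The host gene's own promoter went with the density of sites in its introns. Genes with a promoter DHS in both libraries held 25.9 members per Mb, and genes with one in neither held 16.0 per Mb. Long genes are sparser, so the split was also made within classes of territory. At 20 to 50 kb of territory the values were 36.1 and 22.5 per Mb, at 100 to 200 kb 30.2 and 12.8, and over 500 kb 13.5 and 4.18, the last over 9 genes without a promoter DHS. The order was the same in all 5 classes. Among genes with an open promoter, split into 4 equal classes by promoter height, the lowest class held 16.6 per Mb and the upper 3 held 32.4, 32.5 and 32.1 per Mb. The lowest class also had the most territory, 239 Mb against 90.6 to 147 Mb in the others at nearly equal gene numbers, so its genes were longer, and this split was not repeated by length.

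At least 1 member lay in 4841 of 10879 autosomal protein-coding genes with any deep intronic territory. The median gene that held any had 2, while 50 genes held at least 20. The 10% of host genes with the most members took 37.8% of all placements. Gse1 held 46 members in 293 kb of territory, with heights from 1.15 to 16.4 in replicate 1 and from 0.977 to 9.25 in replicate 2. All 46 had a footprint in replicate 1 and 34 in replicate 2. Zmiz1, a transcriptional coregulator gene, held 33 members, Zfhx3, a homeobox and zinc finger transcription factor gene, 32, and Nav2, Camta1, Auts2 and the nuclear receptor gene Rora 30 each. Rora had median heights of 1.33 and 1.06, and Auts2, a chromatin regulator gene, of 0.987 and 0.822. GENCODE annotates Fgfr2 and Gm20388 as spans of 2960900 and 4434882 bp that contain many other genes. They held 85 and 211 members, but were the only host of 37 and 117 of these.

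Density was ranked over 956 genes with at least 50 kb of territory and 5 members. Among the densest were Tbc1d16, a Rab GTPase-activating protein gene, with 0.206 per kb, D17Wsu92e with 0.205, Rtn4rl1, a Nogo receptor relative, with 0.197, and Cuedc1 with 0.186. Zmiz1 had 0.182 per kb, Prdm11 0.177, Plpp3, a lipid phosphatase gene, 0.175, and Itpkb, an inositol trisphosphate kinase gene, 0.173. Both long and dense, Zmiz1 stood among the first 10 in both orders. At the other end, the longest territories without a member were in Cdh18 (870 kb), Malrd1 (712 kb), Dpp10 (677 kb), Grik2 (613 kb) and Iqcm (522 kb). Cdh18 encodes a cadherin, Dpp10 a potassium channel partner and Grik2 a kainate receptor subunit. These genes were not free of DHSs: Cdh18 had 2 deep intronic DHSs in replicate 1 only and 24 in replicate 2 only.

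Gene lists drawn up for the gland were compared with all genes that had at least 20 kb of deep intron, 5595 in number by symbol, of which 68.4% held a member and 10% formed the densest class by members per kb. The density over those genes was 24.0 per Mb. The 3 NFI factor genes tested had the highest density, 57.7 per Mb, with 18 members in Nfia, 19 in Nfib and 4 in Nfix. Circadian clock genes held 50.4 per Mb, and 3 of 8 were in the densest class. Of these, Arntl, which encodes BMAL1, held 8 members in 73.0 kb, and Per2, a repressor of the clock, held 5 in 23.3 kb. The strongest Per2 site reached 14.4 in replicate 1, and the strongest in replicate 2 was 4.39. Adipocyte and lipid storage genes also held 50.4 per Mb, and all 12 tested had a member.

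Other lists, not all of them of cortex or capsule, also lay above all genes in density. TEAD and Hippo pathway genes held 44.5 per Mb, with Tead1 at 77.4 and Yap1 at 71.8. PBX, MEIS and PKNOX homeobox cofactor genes held 43.7 per Mb, with Meis1 at 51.4. The list of X-zone and thyroid hormone receptor genes held 42.1 per Mb, while its member Thrb held 28.1. Wnt and R-spondin pathway genes held 38.6 per Mb, with 16 of 21 holding a member, and Rspo3 and Lgr5 had none. Of the zona glomerulosa and calcium signalling genes, 20 of 21 held a member, at 38.1 per Mb, and Kcnk3, a potassium channel of that zone, held 5 in 23.6 kb. Capsule and fibroblast genes held 38.0 per Mb, and 5 of 20 were in the densest class. Endothelial genes held 33.7 per Mb, and 4 members in Pecam1 had median heights of 5.42 and 3.74, above its promoter DHS at 0.575 and 0.995. The broader list of transcriptional regulators in long genes held 34.5 per Mb, with 30 of 32 holding a member and Foxp2 among those with none.

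In the list of adrenocortical regulators and steroid synthesis, 10 of 28 genes had enough deep intron, and none of these 10 encodes an enzyme of steroid synthesis proper. Of the 10, 5 held a member, and the density was 18.1 per Mb. Nr3c2, the mineralocorticoid receptor gene, made up 323 kb of the 0.663 Mb of territory and held 4 members, or 12.4 per Mb, so this 1 gene weighs heavily in the list's value. Mrap2, Gata6 and Wt1 held none, and Nr3c1, the glucocorticoid receptor gene, held 1 with heights of 8.35 and 3.32. Scarb1, the receptor that takes up lipoprotein cholesterol, held 5 in 25.1 kb and is named here because it was the one gene of the list in the densest class. Cyclic AMP and phosphodiesterase genes held 24.4 per Mb, close to all genes, with 21 of 23 holding a member. Chromaffin genes held 19.9 per Mb over 3.81 Mb of territory in 18 genes. All genes with 200 to 500 kb of territory held 21.5 per Mb, and the part of gene length in the chromaffin value was not tested. Ddc, the catecholamine pathway decarboxylase gene, held 7 members at 121 per Mb without a promoter DHS in either library. Macrophage and lymphocyte genes held 23.6, skeletal and heart muscle genes 21.6, and kidney and liver genes 16.9 per Mb. Cubn, a renal uptake receptor gene, held 11 members with median heights of 0.625 and 0.711 and had no promoter DHS in either library.

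The sparsest list was that of long neuronal adhesion and synaptic genes, with 6.75 members per Mb in 41.0 Mb of territory. Long genes were sparser in general, and all genes with at least 500 kb of territory held 12.7 per Mb. Of 35 genes, 32 held a member but 0 were in the densest class. Cntnap2 had 4.24 per Mb, Csmd1 4.36 and Csmd3 3.44. In these genes DHSs found in replicate 2 only outnumbered those in replicate 1 only by 1147 to 410, against 16306 to 12033 over all genes tested. Schwann and sustentacular cell genes held 8.79 per Mb. Of the 19 lists, 12 lay above all genes in density, and 18 above all genes in the share of genes that held a member, which grows with the length of the territory.

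**Figure D2:**
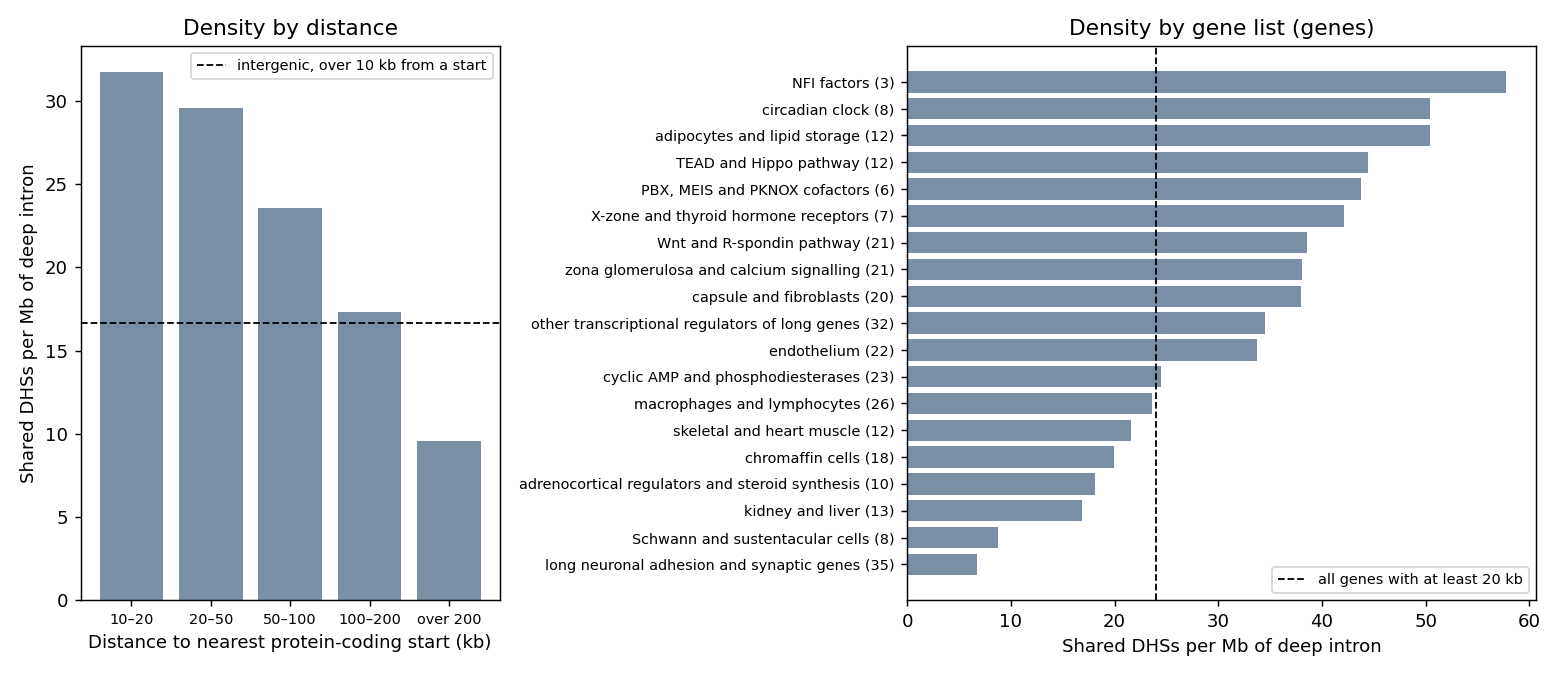
Members per Mb of deep intronic territory by distance from the nearest protein-coding start (left) and by gene list, with the number of genes tested in brackets (right). Bars start at 0. The left dashed line marks intergenic sequence over 10 kb from a start, not split by distance (16.7 per Mb). The right dashed line marks all genes with at least 20 kb (24.0 per Mb). Density ran from 31.7 to 9.57 per Mb with distance, and from 57.7 for NFI genes to 6.75 for long neuronal genes.

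Heights at the same site differed between the libraries. The median log2 ratio, replicate 2 over replicate 1, was -0.24 (SD 0.75 over sites), and 36.1% of members were higher in replicate 2. Over all 79479 shared autosomal DHSs the median was -0.34. Members over 2-fold lower in replicate 2 numbered 2783 (17.4%), against 16.2% of all shared DHSs, and those over 2-fold higher 472 (2.95%), against 2.25%. These splits depend on the scaling. With heights divided by each library's median over shared DHSs, the median ratio was 0.17, and 58.8% of members were higher in replicate 2, with 1259 over 2-fold lower and 1641 over 2-fold higher.

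Members with the CTCF core had lower ratios than members without it. It was found in 1897 members (11.9%), whose median heights were 2.57 in replicate 1 and 1.24 in replicate 2. Members without it had 1.17 and 1.03. Their median log2 ratios were -0.99 (SD 0.77) with the core and -0.18 (SD 0.70) without, and with heights scaled by the median of shared DHSs -0.58 and 0.23, since a scaling moves both by the same amount. Among the members over 2-fold lower in replicate 2, 33.7% (31.9 to 35.4) held the core, against 1.48% (0.720 to 3.03) of those over 2-fold higher and 7.48% of the rest. Height itself went with both measures, so the split was repeated within bins of geometric mean height. At 0.5 to 1 the medians were -0.31 with the core and 0.03 without, at 1 to 2 -0.90 and -0.26, and at 2 to 4 -1.28 and -0.56, and the core had the lower value in all 6 bins. The same held outside the deep introns. Shared intronic DHSs nearer to a start had medians of -0.94 with and -0.23 without the core, and intergenic ones 10 to 100 kb from a start -1.05 and -0.25, while at promoters the values were -0.59 and -0.40. What sets this difference between the libraries was not tested.

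**Figure D3:**
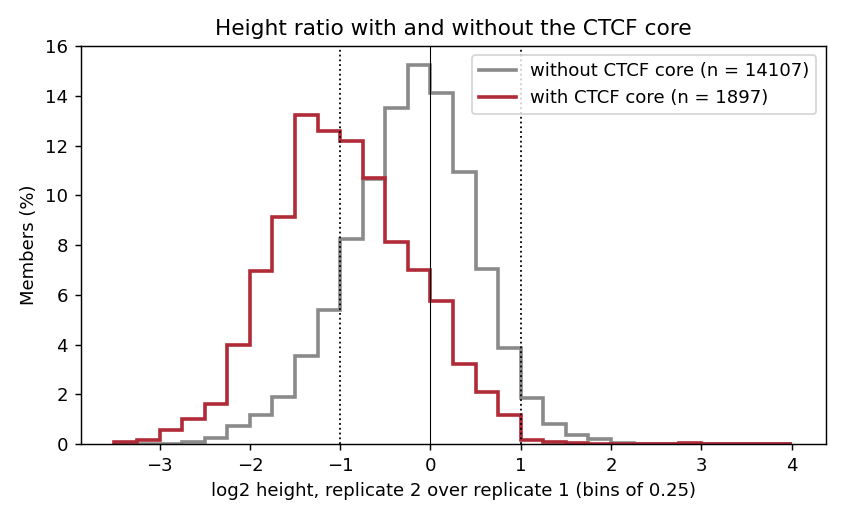
Distribution of the log2 height ratio, replicate 2 over replicate 1, in bins of 0.25 (x axis) as a percent of members (y axis), for the 1897 members with the CTCF core and the 14107 without. Dotted lines mark a 2-fold difference: 49.4% of members with the core and 13.1% of those without lay below -1.

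Single sites show the same contrast. Among members of above-median height, the lowest ratios included those at Phactr1, an actin regulator gene (5.64 and 0.542), Arfgef3 (4.56 and 0.462), Faah, the fatty acid amide hydrolase gene (7.75 and 0.844), and Camta1, a calmodulin-binding transcription activator gene (16.0 and 1.75). Phactr1, Arfgef3 and Camta1 held the CTCF core, and Faah did not. The highest ratios were at Negr1, a neuronal adhesion gene (0.542 and 3.89), Ccdc88c (0.592 and 2.92), Rasa3, a Ras GTPase-activating protein gene (0.617 and 2.93), Ptprc (0.667 and 2.99) and Cblb, a ubiquitin ligase gene of T cells (0.650 and 2.90). Negr1 was the one of these 5 with the CTCF core. Ptprc encodes CD45, which is found on all white blood cells. In the macrophage and lymphocyte genes, 9 of 98 members (9.18%) were over 2-fold higher in replicate 2, against 2.95% of all members, while 17 (17.3%) were over 2-fold lower, against 17.4%. Their median log2 ratio was -0.24, as over all members. The share over 2-fold higher was 10.6% (5 of 47) in skeletal and heart muscle genes and 6.14% in long neuronal genes. In the macrophage and lymphocyte genes 141 deep intronic DHSs were in replicate 2 only against 76 in replicate 1 only, where all genes tested had 16306 against 12033. Wnt pathway genes, with 124 against 65, and kidney and liver genes, with 66 against 29, leaned the same way. In the Wnt list, Lrp5 alone held 55 of the DHSs in replicate 2 only and 2 of those in replicate 1 only. The promoter DHS of Cd3e was also in replicate 2 only, and the part of such cells in these values was not tested. In bulk tissue, more cells of a type and more open chromatin per cell cannot be told apart.

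Nearly all members held a footprint in at least 1 library. In replicate 1, 89.0% (88.5 to 89.5) held at least 1, and in replicate 2, 77.6% (76.9 to 78.2). There were 32546 footprints in members in replicate 1, a mean of 2.03 per DHS covering 16.6% of their bases, and 20282 in replicate 2, a mean of 1.27 covering 8.09%. The median footprint was 11 bp wide in replicate 1 and 8 bp in replicate 2. Footprints lay at a median of 32 bp from the DHS centre in replicate 1 and 21 bp in replicate 2. Both libraries had a footprint in 71.04% of members, replicate 1 alone in 17.98%, replicate 2 alone in 6.55% and neither in 4.43%. In 53.3% (52.5 to 54.1) a footprint of one library overlapped one of the other by at least 1 bp, and in 31.8% by at least 50% of each. The 709 members without one had median heights of 0.533 and 0.604.

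Whether a footprint was called went with height. In replicate 1 the share was 49.97% below a height of 0.5, 84.2% at 0.5 to 1, 95.1% at 1 to 2, and 100% of 394 members above 8. In replicate 2 it was 32.8%, 69.4%, 87.0% and 100% of 59. At equal heights from 0.5 to 8, members held a footprint more often than promoters did. At 1 to 2, 56.8% (55.4 to 58.3) of shared promoter DHSs had one in replicate 1 and 58.8% (57.5 to 60.1) in replicate 2, and these intervals do not reach the members' values. Shared intergenic DHSs 10 to 100 kb from a start were close to the members, with 94.4% and 87.1%. The promoters were also wider, with a median of 200 bp. Arid1b, a chromatin remodelling subunit gene, held a member with 6 footprints in each library, 5 of them at the same place, and heights of 17.3 and 12.7. The strongest member with no footprint in either library lay in Prdm2, with heights of 4.02 and 2.58, close to the Prdm2 site printed above. Both Arid1b and this site were named after their values were seen.

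**Figure D4:**
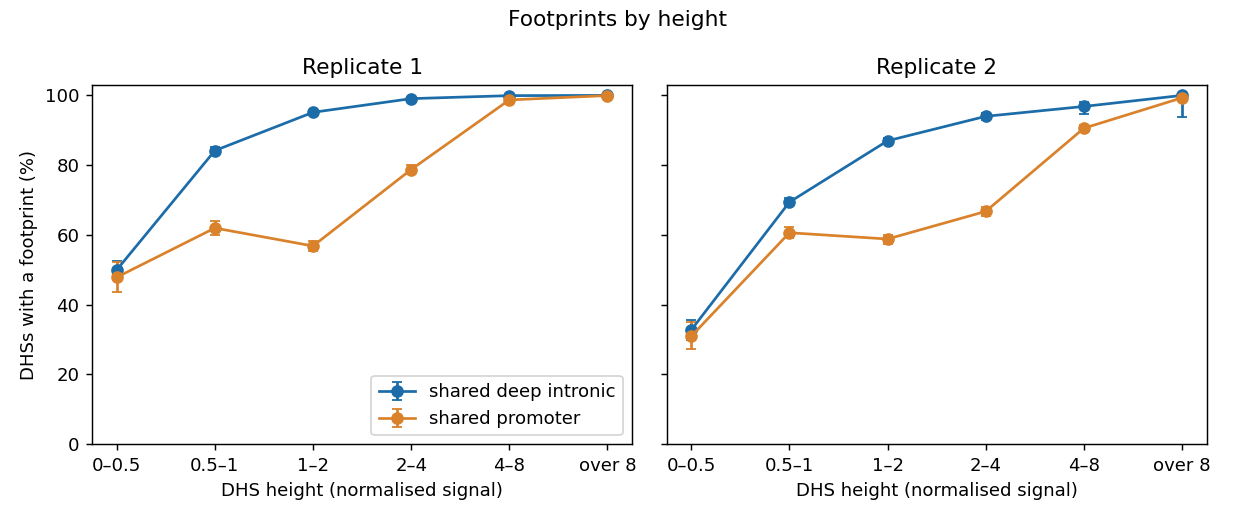
Share of shared DHSs with at least 1 footprint (y axis, percent, with 95% Wilson intervals) by DHS height (x axis), for members and promoters in each library. Below a height of 0.5 both sets were near 49.97% in replicate 1 and near 32.8% in replicate 2, and at 1 to 2 the members reached 95.1% and 87.0% against 56.8% and 58.8% of promoters.

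The members' sequences were richer in G and C than the introns around them. Their median GC content was 53.3%, against 45.6% in 30585 flanks of equal length 2 kb away that touched no DHS, and 65.8% in shared promoter DHSs. Soft-masked repeats made up 8.55% of member bases and 23.5% of flank bases. The CpG frequency was 0.228 times that expected, against 0.175 in flanks and 0.782 in promoters. Of 32 consensus sequences searched on both strands, 11 were over 2 times as frequent in members as in flanks and 12 were less frequent. Base composition moves with these ratios, and its part in them was not tested. Shares below are of sequences that hold at least 1 match, and a match describes letters, not a bound site.

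The CTCF core and the rare NFI palindrome had the highest ratios to flanks and the highest shares of matches in footprints. The CTCF core was in 11.9% (11.4 to 12.4) of members and 1.12% (1.01 to 1.24) of flanks, 10.6 times as many, and in 3.55% of shared promoter DHSs. It was also common in other DHSs away from starts, in 11.6% of shared intronic DHSs within 10 kb of a start and 15.3% of intergenic ones 10 to 100 kb away. Its matches lay in a footprint in 84.1% of cases in replicate 1 and 52.4% in replicate 2, where footprints covered 16.6% and 8.09% of bases. It was in 25.7% of the strongest 10% of members and 4.0% of the weakest. The NFI palindrome was rare, in 37 members (0.231%, 0.168 to 0.318) and 2 flanks, and 83.8% and 65.7% of its matches were in footprints. The shorter NFI sequence TTGGCA was in 20.5% of members and 8.30% of flanks, with 36.8% and 23.0% of matches in footprints. The cyclic AMP response element TGACGTCA, bound by CREB, was in 64 members, 3.60 times the flanks' share, with 57.8% and 32.8% in footprints. The GC box GGGCGGG was in 4.11% of members, 1.08% of flanks and 40.3% of promoters.

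Nuclear receptor sequences that share the core AGGTCA differed by the bases before it. The SF-1 sequence CAAGGTCA was in 730 members (4.56%, 4.25 to 4.90), against 1.17% of flanks and 1.08% of shared promoter DHSs. That is 3.90 times the flanks' share. Shared intronic DHSs nearer to a start had it in 4.22% and intergenic ones 10 to 100 kb away in 3.51%. For AAAGGTCA, the NR4A sequence, the ratio was 1.82, and for TAGGTCA, which ROR receptors bind, 1.07. The core AGGTCA on its own was in 18.6% of members and 10.7% of flanks. In footprints lay 30.6% of SF-1 matches in replicate 1 and 12.7% in replicate 2, 16.7% and 7.83% of NR4A matches, and 13.5% and 6.77% of ROR matches, so that the last pair were close to the share of bases in footprints. Members with the SF-1 sequence had median heights of 1.15 and 1.11, near those of the rest. The SF-1 sequence was in 5.30% of members over 2-fold higher in replicate 2, near the 4.56% of all members. It was in 1.65% of those over 2-fold lower, of which 33.7% held the CTCF core. Both sequences were in 27 members, against 86.5 from the product of their shares, and the core's part in this split was not tested. The AP-1 sequence split the same way, with 18.6% and 9.41%. The TEAD sequence GGAATG went the other way, with 5.30% and 10.2%. In 56 members an SF-1 match lay under a footprint in both libraries. Rora held 4 members with the sequence among its 30, and Dlc1 held 3 among 15.

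AP-1 sequences were common but little footprinted. TGANTCA was in 18.95% (18.4 to 19.6) of members and 4.93% of flanks, 3.85 times as many, and in 4.35% of promoters. The shares in near intronic and intergenic shared DHSs, 16.5% and 17.04%, were close to the members' share. Of its matches, 21.7% lay in a footprint in replicate 1 and 6.74% in replicate 2, on either side of the share of bases. Sequences less frequent than in flanks included the POU octamer ATGCAAAT, at 0.39 times, and the GATA sequence AGATAA, at 0.70 times. The FOX sequence TGTTTAC was at 0.75 times, and like those is rich in A and T. The ZEB sequence CAGGTG, which is not, was at 0.90 times. The ETS sequence CCGGAAG was in 1.34% of members, 0.562% of flanks and 10.9% of promoters. Of the CTCF core, the SF-1 sequence, the AP-1 sequence, TTGGCA and the GC box, 42.7% of members held exactly 1 kind and 48.9% held none. Members with none had median heights of 1.12 and 0.977, and those with exactly 1 kind had 1.37 and 1.11.

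**Figure D5:**
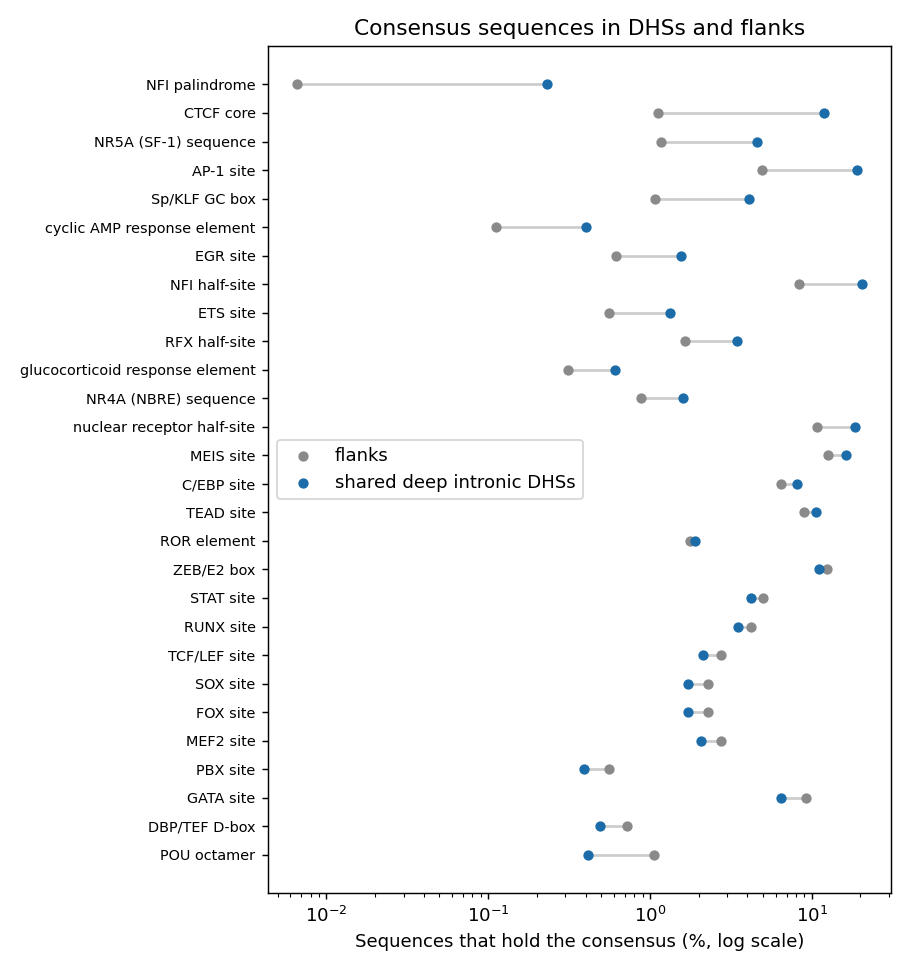
Percent of members and of flanks 2 kb away that hold each consensus sequence (x axis, log scale), ordered by the ratio of the 2 shares. The CTCF core (11.9% against 1.12%), the SF-1 sequence (4.56% against 1.17%) and the AP-1 sequence (18.95% against 4.93%) lie far to the right of their flanks, while the GATA sequence and the POU octamer lie to the left; E-box forms and the HNF1 sequence are not drawn.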

How the data were processed

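DNase-seq peak lists and footprints of 2 adrenal gland libraries were analysed, in mm10 per the file headers. Peak height is the deposited signal, scaled to read depth by the authors and listed in column 7. The authors' deposited q-value list gives the false discovery rate along the genome, and every deposited footprint carries the same threshold of 0.01. For the aligner, the peak caller and the footprint caller, names and versions are not given in the sources read for this work. Peaks and footprints were called per library.

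Members and partners were joined by position in Python 3.11.15 with numpy 2.4.6 and pandas 2.3.3, and figures drawn with matplotlib 3.10.9. The joining code was tested on simulated data. Genes came from GENCODE M21. Protein-coding starts are the 5′ ends of protein-coding transcripts, and each member's host is the shortest protein-coding gene that holds its centre. Introns were numbered in the principal transcript, or the longest where several qualified. Soft-masking and sequences came from RefSeq GRCm38.p6. A gene needed 20 kb of deep intron for the lists, of which there were 19. Intervals are 95% Wilson intervals for counting error only, since regions of 1 genome are not replicates. Reads of an F1 hybrid may align unequally to the reference, which was not tested.

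The members, the lists, the consensus sequences and the rule for naming genes were chosen with earlier results of these data known. The rule named the genes with the most members, the densest and the longest empty ones, the hosts of the strongest members and of the largest height ratios, the first 4 genes of each list with enough intron, the printed members, and those nearest the distance limit. Not every gene it allowed is named, and some are not reported here. Alternatives covered the overlap, the distance, exons, starts, the peak list, the scaling of heights, footprint overlap and flanks.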

Additional observations from a re-analysis of the deposited data

How the results depend on the processing

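The number of members was 7875 with the shorter peak list in both libraries, 28682 without replicate 2 and 33026 without replicate 1. It stayed within 1.5 times of 16004 under the other 8 alternatives, among them a limit of 5 kb (19287) or 20 kb (11706), all transcript starts (12708) and, chosen after seeing the data, no annotated start of any kind within 1 kb (15122). The share shared was 48.7% when 50% of each DHS had to overlap and 48.5% of replicate 2. Median heights with the shorter list were 2.17 and 1.58. The median log2 ratio turned to 0.17 with heights divided by the median over shared DHSs and to 0.16 with heights divided by the library sum. These scalings remove differences between the libraries of -0.41 and -0.40, log2 of replicate 2 over replicate 1, from every site. Without members that hold the CTCF core, an alternative added later, it was -0.18. Density was 0.0437 per kb without replicate 2 and 0.0503 per kb without replicate 1. The share with a footprint was 88.9% in replicate 2 with the shorter list, and a footprint at the same place was in 31.8% with the stricter overlap. With flanks 5 kb away the ratios were 9.99 for the CTCF core, 4.21 for the SF-1 sequence, 4.05 for AP-1 and 23.7 for the NFI palindrome. Among members with a footprint in both libraries the CTCF ratio was 12.8. The other alternatives, 26 of 44 in all, moved values by less than the spread between the libraries, the counting interval or 1.5 times. No paired analysis was possible because there is 1 group with 2 libraries. What depth limits was not tested. Below a height of 0.5, 49.97% of members had a footprint in replicate 1 and 32.8% in replicate 2, and a site without one is not shown to lack it.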
